A study of Mus musculus with 6 samples.

Results

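BMP and TGF-beta signaling was examined in calvarial preosteoblasts through 52 genes: 9 BMP or GDF ligands, 6 TGF-beta or activin ligands, 11 receptors, 8 antagonists, 6 SMADs, 4 inhibitory SMADs or SMURFs, 4 ID targets and 4 latent TGF-beta binding proteins. The genes were picked from the pathway by name, by an exact match of the symbol, and all 52 were among the 17001 rows of the expression table. The cells were primary preosteoblasts, the precursors of osteoblasts, taken from the skull vault of 3-day-old mice and cultured in α-MEM with fetal bovine serum. Both groups carried the floxed alleles Nell2 fx/fx, and the 3 conditional knockout libraries (Col1-cre; Nell2 fx/fx, cKO) differed from the 3 control libraries (Nell2 fx/fx) by a Cre recombinase driven by a Col1a1 promoter. The comparison asks what deletion of NELL2, a secreted glycoprotein, does to gene expression in these cells. Cre acts only in cells where this promoter is active, so other cells of the culture keep an intact allele. The share of such cells was not tested. The labels do not say whether replicates are separate animals, litters or cultures, so p-values measure only the spread between these libraries.

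BMPs and TGF-betas are secreted dimers that bind pairs of type I and type II serine/threonine kinase receptors. BMP receptors phosphorylate SMAD1, SMAD5 and SMAD9, and TGF-beta and activin receptors phosphorylate SMAD2 and SMAD3; both sets enter the nucleus with SMAD4. In bone, BMPs drive osteoblast commitment, whereas TGF-betas, held in the matrix by latent TGF-beta binding proteins, recruit and expand precursors and restrain their maturation. Antagonists such as noggin and gremlin trap BMPs outside the cell, SMAD6, SMAD7 and the SMURF ubiquitin ligases damp the signal within it, and the ID genes are direct BMP targets.

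Values were FPKM, that is, sequenced fragments divided by gene length and by library size, so levels of different genes can be set side by side. Sequencing depth is not known from FPKM, and no counting error can be given. Differences are log2 fold changes of FPKM + 1, cKO minus control, with a 95% interval. This scale understates the difference of genes with low values. They come from limma over 11590 rows, those that reached 1 FPKM in 3 or more libraries, of which 46 were pathway members. In bulk RNA, fewer cells of a type and less RNA per cell cannot be told apart.

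Of the 46 members tested, 0 had an adjusted p under 0.05 in limma, as did 0% of all rows tested. The lowest adjusted p of a member was 0.312. At an unadjusted p under 0.05, 4 members were higher in cKO (*Bmp5*, *Tgfb3*, *Acvr2a* and *Ltbp3*), beside 5.37% of all rows, and 2 were lower (*Bmp2* and *Bmp4*), beside 7.76% of all rows. The groups did not overlap in 4 members that were higher in cKO (*Tgfb3*, *Acvr1*, *Acvr2a* and *Ltbp3*; 6.51% of all rows) and in 3 that were lower (*Bmp2*, *Bmp4* and *Tgfbr2*; 11.8% of all rows). For 46 genes these counts are near the background. The median difference was 0.06 over the members, with 31 positive and 15 negative, and -0.02 over all rows tested. The median size of a difference, regardless of sign, was 0.10 for the members and 0.09 for all rows. In 39 of the 46 members, or 84.8%, the 95% interval lay within a 1.5-fold difference in either direction, beside 87.7% of all rows tested.

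**Figure D1:**
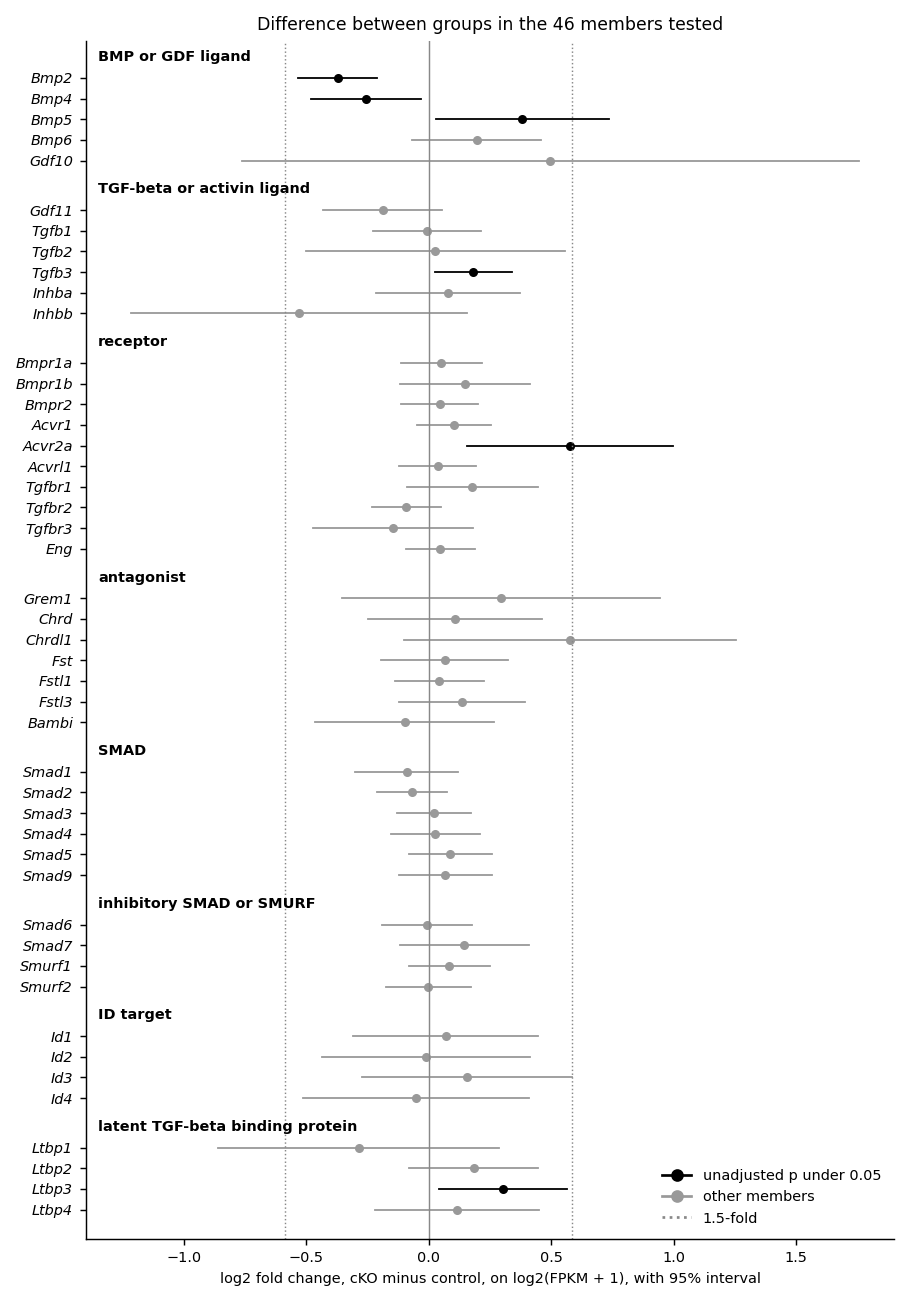
Log2 fold change of each of the 46 members tested, cKO minus control on log2(FPKM + 1), with its 95% interval, grouped by role; dotted lines mark a 1.5-fold difference and black marks an unadjusted p under 0.05. The SMAD, inhibitory SMAD or SMURF and ID intervals all lie between the dotted lines, while those of *Gdf10*, *Inhbb* and *Chrdl1* are wide.

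The targeted transcript, *Nell2*, was no lower in cKO than in control. Its FPKM was 3.17, 2.59 and 1.88 in control replicates 1 to 3 and 5.64, 1.61 and 5.74 in cKO replicates 1 to 3 (log2 fold change 0.48, standard error 0.37, adjusted p = 0.591, limma), so every direction here follows the labels. A gene-level value does not separate the floxed part from the rest of the transcript. The paper reports that it checked the deletion in calvarial preosteoblasts by qRT-PCR and western blotting, which FPKM does not replace. The 10 osteoblast markers summed to 17660 to 18508 FPKM in control and 18116 to 18334 in cKO libraries. Most of that sum was *Col1a1* and *Col1a2*, followed by *Spp1* at 1337 to 2083 FPKM. Of the 8 osteoblast markers tested, 4 were lower in cKO at an unadjusted p under 0.05 (*Sp7*, *Alpl*, *Bglap* and *Ibsp*), beside 7.76% of all rows. All 4 were without overlap, beside 11.8% of all rows, and the median difference of the 8 was -0.33. *Alpl* was at 25.2 to 36.4 FPKM in control and 22.0 to 23.1 in cKO, *Ibsp* at 48.8 to 123.9 and 26.2 to 34.6, and *Bglap* at 2.52 to 8.61 and 1.2 to 2.38. The other markers tested had log2 fold changes of -0.21 (*Runx2*), -0.01 (*Col1a1*), 0.04 (*Col1a2*) and 0.12 (*Spp1*), all with overlap. *Dmp1*, not tested, was at 2.31, 0.58 and 0.38 FPKM in control and 0.06, 9.32 and 0.21 in cKO replicates 1 to 3. Marker lists of other cells differed in part between the groups. The 6 epithelial markers summed to 6.13 to 19.1 FPKM in control and 27.1 to 57.7 in cKO libraries. Of the 5 tested, 4 were higher at an unadjusted p under 0.05, beside 5.37% of all rows. The 7 adipocyte markers summed to 35.0 to 50.9 and 76.1 to 119.6. Of the 4 tested, 2 were higher at an unadjusted p under 0.05 (*Pparg* and *Fabp4*), beside 5.37% of all rows. Both were without overlap, beside 6.51% of all rows. Most of the difference in the sum was *Fabp4*, at 13.91 to 22.45 FPKM in control and 49.33 to 85.35 in cKO. *Cebpa* and *Lpl* had log2 fold changes of 0.02 and 0.46 with overlap. *Adipoq*, *Plin1* and *Cidec* were under 1 FPKM in every library. The 7 cartilage markers summed to 239 to 304 and 277 to 333, which overlapped. Of the 6 tested, 3 were higher at an unadjusted p under 0.05 (*Acan*, *Col9a1* and *Comp*), beside 5.37% of all rows. Only 1 of the cartilage markers, *Col9a1*, was higher without overlap, beside 6.51% of all rows. The 8 macrophage, 7 endothelial and 6 muscle markers had sums that overlapped (36.2 to 99.9 and 49.8 to 82.5, 2.02 to 4.11 and 2.02 to 3.65, and 29.8 to 55.8 and 40.9 to 47.6), with 0 at an unadjusted p under 0.05. None of these markers was at 0 in all 6 libraries. The part of other cell types in the differences below was not tested. Y-linked *Ddx3y* was at 15.7 to 17.3 FPKM in 1 control and 2 cKO libraries and at 0.06 or less in the other libraries.

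Members covered a wide range of levels. *Fstl1* had the highest mean (793 FPKM, above 99.3% of all rows), followed by *Id3* (320) and *Tgfb3* (124). In all, 28 members had a mean of at least 10 FPKM and 6 a mean under 1. Of the ligands, *Bmp4* was the main transcript of the BMP and GDF group in 5 of the 6 libraries, and *Tgfb3* that of the TGF-betas.

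**Figure D2:**
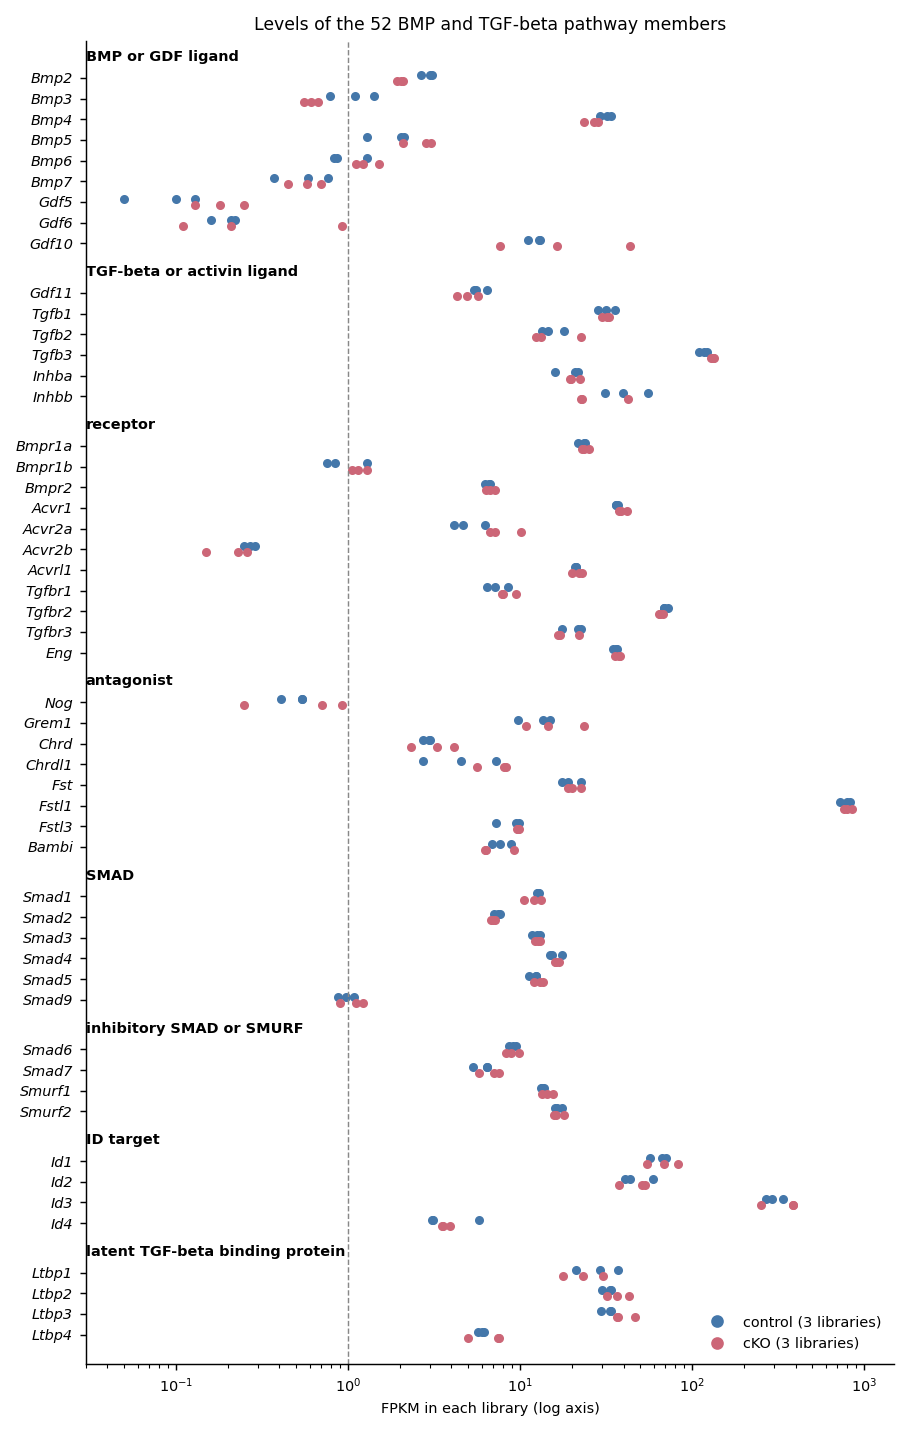
FPKM of all 52 members in each of the 6 libraries on a log axis, by role; blue points are control and red points cKO libraries (n = 3 each), and the dashed line marks 1 FPKM. Levels run from under 1 for *Gdf5*, *Gdf6*, *Bmp7*, *Acvr2b* and *Nog* to 725 to 851 for *Fstl1*.

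To let the reader see the DNA beside the values, the 250 bases upstream of the RefSeq transcript start (GRCm38.p6) are given for *Bmp4*, the most abundant BMP ligand, and for the BMP-responsive genes *Msx1* and *Id4*. These genes were chosen with their values known. Capitals mark GGCGCC, a GC-rich sequence that BMP SMADs are known to bind; CAGAC or its complement, the SMAD box, was searched too and would also be in capitals, on both strands.
Bmp4, 250 bases at chr14:46390670-46390919, minus strand: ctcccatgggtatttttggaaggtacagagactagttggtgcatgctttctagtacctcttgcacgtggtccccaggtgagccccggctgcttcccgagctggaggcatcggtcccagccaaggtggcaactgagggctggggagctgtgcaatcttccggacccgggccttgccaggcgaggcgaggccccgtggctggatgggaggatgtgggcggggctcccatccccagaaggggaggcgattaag
Msx1, 250 bases at chr5:37824586-37824835, minus strand: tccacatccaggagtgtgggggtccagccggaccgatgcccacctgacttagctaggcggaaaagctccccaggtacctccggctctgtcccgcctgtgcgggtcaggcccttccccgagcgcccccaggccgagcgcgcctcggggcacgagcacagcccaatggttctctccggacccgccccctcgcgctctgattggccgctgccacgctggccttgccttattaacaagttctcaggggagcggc
Id4, 250 bases at chr13:48260866-48261115, plus strand: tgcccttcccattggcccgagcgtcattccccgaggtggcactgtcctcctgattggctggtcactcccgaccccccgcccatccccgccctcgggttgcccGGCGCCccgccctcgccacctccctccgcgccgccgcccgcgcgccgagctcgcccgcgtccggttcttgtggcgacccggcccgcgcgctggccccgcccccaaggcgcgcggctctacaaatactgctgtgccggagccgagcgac
*Bmp4* and *Msx1* hold neither motif in these bases, and *Id4* holds 1 GGCGCC. The window of *Id2* holds 1 GGCGCC and 0 CAGAC, that of *Id3* holds 0 and 2, and that of *Msx2* holds neither; these 3 overlap exons and are not printed. Of 32851 RefSeq upstream windows of that length, 9.59% hold GGCGCC and 42.2% hold CAGAC. Windows were at hand for 36 of the 52 members, 44 windows in all, of which 12 (27.3%) hold GGCGCC and 21 (47.7%) hold CAGAC. A match is a string of letters and no measured binding site.

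Among the 5 BMP or GDF ligands tested, *Bmp2* and *Bmp4* had lower values in cKO and *Bmp5*, *Bmp6* and *Gdf10* higher ones. *Bmp2* (chr2:133552159-133562885, GENCODE M21 on GRCm38), which induces bone formation and fracture repair, had an FPKM of 3.08, 2.66 and 3.02 in control and 2.10, 2.05 and 1.93 in cKO replicates 1 to 3. All 3 cKO libraries lay below all 3 controls, and they differed little among themselves. The means were 2.92 ± 0.227 and 2.03 ± 0.0874 FPKM (SD, n = 3), a ratio of 0.694, and the log2 fold change of -0.37 (standard error 0.07, interval -0.53 to -0.21) had an unadjusted p of 0.000959 and an adjusted p of 0.312 in limma. The unadjusted p of *Bmp2* stayed under 0.05 in all 14 alternatives of processing and of libraries left out. *Bmp4* (chr14:46383520-46390669), the most abundant BMP here and a close relative of *Bmp2*, was at 33.97, 29.08 and 31.90 in control and 28.59, 26.95 and 23.56 in cKO. Its groups did not overlap either, but control replicate 2 and cKO replicate 1 were close to each other, and with median-ratio scaling the groups overlapped. Its mean was 31.7 ± 2.45 in control and 26.4 ± 2.57 in cKO (SD, n = 3; log2 fold change -0.26, standard error 0.09, interval -0.48 to -0.03, unadjusted p = 0.0299, adjusted p = 0.340, limma). In 5 of the 14 alternatives the unadjusted p of *Bmp4* was over 0.05, up to 0.101 without control replicate 1. An antisense gene, *Gm15217*, overlaps *Bmp4* exons, and reads of the pair cannot be told apart unless strand was used in counting. *Bmp2* and *Bmp4* together summed to 34.6 ± 2.67 FPKM in control and 28.4 ± 2.65 in cKO (SD, n = 3).

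*Bmp5*, a ligand of the BMP7 subgroup that shapes the skeleton, was the one BMP with an unadjusted p under 0.05 in the other direction. It was at 1.30, 2.04 and 2.11 FPKM in control and 2.10, 3.04 and 2.83 in cKO. The groups overlapped, since cKO replicate 1 lay just below control replicate 3. The log2 fold change was 0.38 (standard error 0.15, interval 0.03 to 0.73, unadjusted p = 0.0382, adjusted p = 0.361, limma), and 5 of the 14 alternatives gave an unadjusted p over 0.05, up to 0.115 without cKO replicate 2. *Gdf10*, also called BMP3b, was at 12.97, 11.17 and 13.16 in control and 7.61, 43.79 and 16.53 in cKO. The cKO libraries spread far on both sides of the controls (log2 fold change 0.50, interval -0.76 to 1.75). Without cKO replicate 1 the log2 fold change was 1.06 (unadjusted p = 0.0272, adjusted p = 0.178, limma), and without cKO replicate 2 it was -0.13. In cKO replicate 2 it exceeded *Bmp4*, whose share of the summed BMP and GDF ligand FPKM was 34.0% there and 49.4% to 65.9% in the other libraries. It is described for that spread, chosen after its values were seen. *Bmp6*, at 0.83 to 1.51 FPKM, had a log2 fold change of 0.20 (interval -0.07 to 0.46). *Bmp3*, a BMP that opposes osteogenic signaling, was below the filter. It was at 1.41, 1.10 and 0.79 in control and 0.67, 0.56 and 0.61 in cKO, which did not overlap (also named after its values were seen). In the fit without a filter its log2 fold change was -0.37 (unadjusted p = 0.0176, adjusted p = 0.380, limma). The remaining members of the group, *Bmp7*, *Gdf5* and *Gdf6*, stayed under 1 FPKM in every library.

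**Figure D3:**
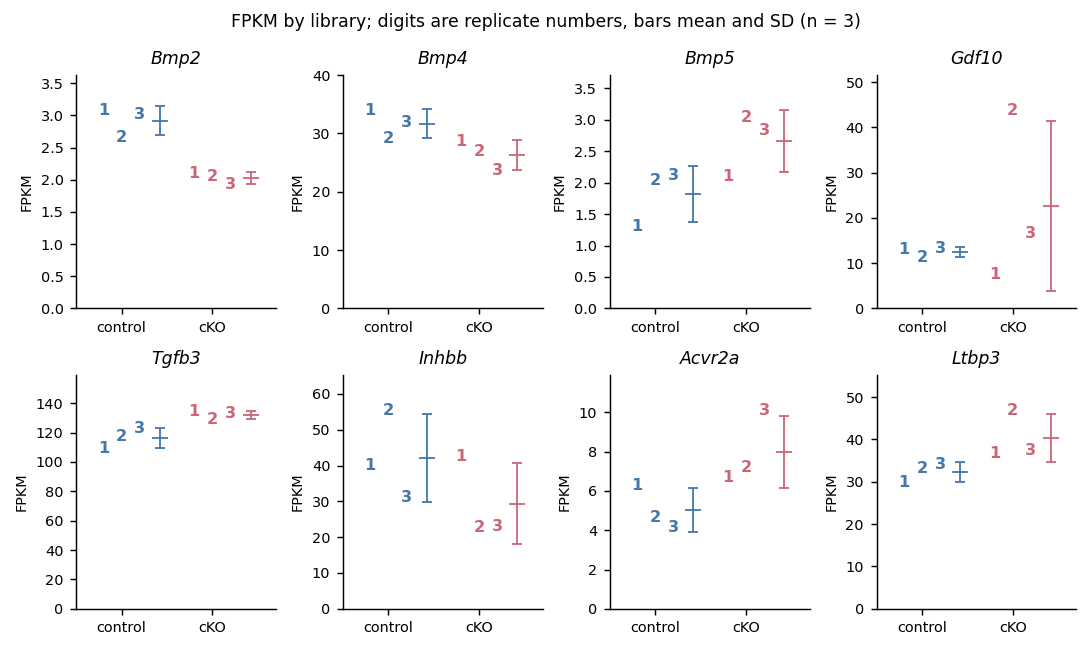
FPKM of *Bmp2*, *Bmp4*, *Bmp5*, *Gdf10*, *Tgfb3*, *Inhbb*, *Acvr2a* and *Ltbp3* by library, each panel on its own axis from 0; digits are replicate numbers, and bars are mean and SD (n = 3). The groups are apart for *Bmp2*, *Bmp4*, *Tgfb3*, *Acvr2a* and *Ltbp3*, and *Gdf10* reaches 43.79 in cKO replicate 2.

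The TGF-beta and activin ligands were dominated by *Tgfb3*, the 1 of these 6 genes with an unadjusted p under 0.05. In all, 3 of them had positive and 3 negative differences. *Tgfb3* (chr12:86056745-86079041) was at 109.10, 117.09 and 123.02 FPKM in control and 134.21, 128.74 and 133.24 in cKO. Every cKO library exceeded every control. The means were 116 ± 6.99 and 132 ± 2.92 (SD, n = 3), a ratio of 1.13, with a log2 fold change of 0.18 (standard error 0.07, interval 0.02 to 0.34, unadjusted p = 0.0301, adjusted p = 0.341, limma). In 6 of the 14 alternatives its unadjusted p was over 0.05, up to 0.106 without control replicate 1, and the antisense genes *Gm37804* and *Gm48008* overlap its exons. *Tgfb1*, the form stored in bone matrix in the largest amount, was at 35.74, 31.57 and 28.45 in control and 29.99, 31.89 and 33.06 in cKO. *Tgfb2* was at 14.60, 18.00 and 13.52 in control and 22.68, 13.30 and 12.44 in cKO. Both overlapped, with log2 fold changes of -0.01 (interval -0.23 to 0.21) and 0.03 (interval -0.50 to 0.55), and the sign turned without some libraries for both and with median-ratio scaling for *Tgfb1*. *Tgfb3* made up 71.1% ± 3.15 of the summed TGF-beta FPKM in control and 73.5% ± 1.45 in cKO (SD, n = 3).

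Of the activin subunits, *Inhba* forms activin A and *Inhbb* activin B. *Inhba* was at 16.0 to 22.4 FPKM over the 6 libraries with a log2 fold change of 0.08 (interval -0.21 to 0.37). *Inhbb* ranged from 31.15 to 55.38 in control and from 22.62 to 42.46 in cKO, and the value of cKO replicate 1 lay among the controls (log2 fold change -0.53, interval -1.21 to 0.16, unadjusted p = 0.110, adjusted p = 0.467, limma). Without that library the log2 fold change was -0.82 (unadjusted p = 0.0103, adjusted p = 0.119, limma). *Gdf11*, a relative of myostatin, was at 4.32 to 6.41 FPKM with a log2 fold change of -0.19 (interval -0.43 to 0.05).

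The receptors differed little, with 1 exception among the 10 tested. *Acvr2a* (chr2:48814109-48903269), a type II receptor shared by activins and several BMPs, was at 6.30, 4.65 and 4.13 FPKM in control and 6.71, 7.21 and 10.10 in cKO. All cKO libraries were above all controls, by the narrow margin of 6.71 against 6.30 at the nearest pair. The means were 5.03 ± 1.13 and 8.01 ± 1.83 (SD, n = 3), a ratio of 1.59, and the log2 fold change of 0.58 (standard error 0.18, interval 0.16 to 0.998) had an unadjusted p of 0.0144 and an adjusted p of 0.312 in limma. That unadjusted p stayed under 0.05 in all 14 alternatives, with log2 fold changes from 0.42 to 0.72. Exons of *Acvr2a* overlap those of *Orc4* on the other strand. *Acvr2b*, its paralog, was at 0.15 to 0.29 FPKM, below the filter.

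*Acvr1*, a type I BMP receptor whose activating mutations cause heterotopic bone, was at 37.17, 36.08 and 36.39 FPKM in control and 38.89, 37.53 and 41.63 in cKO. *Tgfbr2*, the type II receptor for TGF-beta, was at 68.50, 72.58 and 68.57 in control and 67.56, 64.98 and 64.03 in cKO. In both genes the groups did not overlap, but the differences of 0.10 (interval -0.05 to 0.25, unadjusted p = 0.149, adjusted p = 0.508) and -0.09 (interval -0.23 to 0.05, unadjusted p = 0.170, adjusted p = 0.529) did not pass limma's test. *Tgfbr1*, the partner of *Tgfbr2*, was at 7.16, 6.46 and 8.48 in control and 7.87, 9.54 and 7.93 in cKO (log2 fold change 0.18, interval -0.09 to 0.44). The type II transcript exceeded that of the type I receptor 6.81 to 11.2 times in every library.

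The type I BMP receptor *Bmpr1a* was at 21.67, 23.95 and 23.57 FPKM in control and 23.57, 25.31 and 22.94 in cKO. The type II BMP receptor *Bmpr2* was at 6.61, 6.71 and 6.23 in control and 7.20, 6.69 and 6.38 in cKO. Both overlapped between the groups, and their differences of 0.05 (interval -0.11 to 0.22) and 0.04 (interval -0.11 to 0.20) were small beside a 1.5-fold difference. The ratio of *Bmpr1a* to *Bmpr2* stayed between 3.27 and 3.78 in the 6 libraries. *Bmpr1b*, *Acvrl1*, *Tgfbr3* and *Eng*, a further BMP receptor, an endothelial-type receptor and both accessory receptors, had log2 fold changes between -0.15 and 0.15, all with intervals within 1.5-fold.

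With all 6 libraries, none of the 7 antagonists tested had an unadjusted p under 0.05. Noggin (*Nog*), which sequesters BMPs, was barely expressed, at 0.54, 0.54 and 0.41 FPKM in control and 0.25, 0.92 and 0.71 in cKO, and was below the filter. Gremlin (*Grem1*), which binds BMP2 and BMP4, was at 14.88, 9.71 and 13.63 in control and 10.92, 14.60 and 23.72 in cKO. The cKO libraries included both values within the control range and the highest one (log2 fold change 0.30, interval -0.35 to 0.95, adjusted p = 0.652, limma). Follistatin (*Fst*), which neutralizes activins, was at 17.54, 19.05 and 22.65 in control and 19.14, 20.09 and 22.67 in cKO. The groups overlapped almost fully (log2 fold change 0.06, interval -0.19 to 0.32). Follistatin-like 1 (*Fstl1*) was at 725.02, 792.78 and 825.33 in control and 850.54, 761.75 and 800.06 in cKO, again with overlap (log2 fold change 0.04, interval -0.14 to 0.22). The other antagonists tested, *Chrd*, *Chrdl1*, *Fstl3* and the decoy receptor *Bambi*, had log2 fold changes between -0.10 and 0.57, the last of these for *Chrdl1* (interval -0.10 to 1.25, unadjusted p = 0.0845, adjusted p = 0.430, limma). *Chrdl1* was at 0.87 without control replicate 3 (unadjusted p = 0.00698, adjusted p = 0.296, limma), and *Chrd* at 0.27 without cKO replicate 1 (unadjusted p = 0.0272, adjusted p = 0.178, limma).

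The SMADs, which carry the signal to the nucleus, were among the steadiest members. *Smad1* was at 12.62, 12.76 and 12.92 FPKM in control and 12.11, 13.34 and 10.51 in cKO. *Smad5*, the other main BMP SMAD, was at 11.33, 12.44 and 12.43 in control and 12.01, 13.54 and 13.12 in cKO. *Smad4*, the common partner, was at 15.04, 15.36 and 17.63 in control and 16.13, 15.91 and 16.85 in cKO. In all 3 genes the groups overlapped, with log2 fold changes of -0.09 (interval -0.30 to 0.12), 0.09 (interval -0.08 to 0.26) and 0.03 (interval -0.15 to 0.21). The TGF-beta SMADs *Smad2* and *Smad3* had log2 fold changes of -0.07 and 0.02, and *Smad9*, at 0.88 to 1.22 FPKM, one of 0.07. All 6 intervals lay within 1.5-fold.

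The inhibitors within the cell were equally close. *Smad6*, which blocks BMP receptors and is itself induced by BMP signaling, was at 9.44, 8.69 and 9.09 FPKM in control and 8.85, 9.93 and 8.35 in cKO. *Smad7*, the inhibitor of both branches, was at 5.33, 6.46 and 6.43 in control and 5.81, 7.58 and 7.11 in cKO. *Smurf2*, a ubiquitin ligase for receptors and SMADs, was at 15.96, 17.55 and 16.53 in control and 15.79, 17.98 and 16.21 in cKO. In each of them the groups overlapped and cKO replicate 2 was the highest library. The log2 fold changes were -0.01 (interval -0.19 to 0.18) for *Smad6*, 0.14 (interval -0.12 to 0.41) for *Smad7* and 0.00 for *Smurf2* (interval -0.18 to 0.17), and *Smurf1* had one of 0.08.

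The ID genes, which encode inhibitors of basic helix-loop-helix factors and read out BMP signaling, did not differ beyond the spread between libraries. *Id1* was at 56.64, 67.10 and 70.69 FPKM in control and 54.43, 82.64 and 69.06 in cKO. *Id2* was at 40.87, 43.51 and 59.06 in control and 37.55, 53.11 and 51.51 in cKO. *Id3* (chr4:136143497-136145755) was at 293.03, 269.69 and 339.86 in control and 250.93, 385.44 and 384.00 in cKO. These 3 genes had their lowest value in cKO replicate 1, while the other cKO libraries lay within or above the control range. *Id4*, with 3.11, 3.09 and 5.78 in control and 3.59, 3.92 and 3.52 in cKO, had its highest value in control replicate 3. The log2 fold changes were 0.07 (interval -0.31 to 0.45) for *Id1*, -0.01 (interval -0.44 to 0.41) for *Id2*, 0.16 (interval -0.27 to 0.58) for *Id3* and -0.05 (interval -0.51 to 0.41) for *Id4*, with adjusted p of 0.724 or more in limma. All 4 intervals on log2(FPKM + 1) were within 1.5-fold, that of *Id3* by a narrow margin. This did not hold with 0.1 added to FPKM in place of 1. The log2 fold changes were then 0.16 (standard error 0.19) for *Id3* and -0.06 (standard error 0.24) for *Id4*, and both intervals reached past 1.5-fold. *Id3* made up 70.3% to 75.6% of the summed ID FPKM in every library. Without cKO replicate 1, *Id3* had a log2 fold change of 0.36 (unadjusted p = 0.0153, adjusted p = 0.141, limma).

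**Figure D4:**
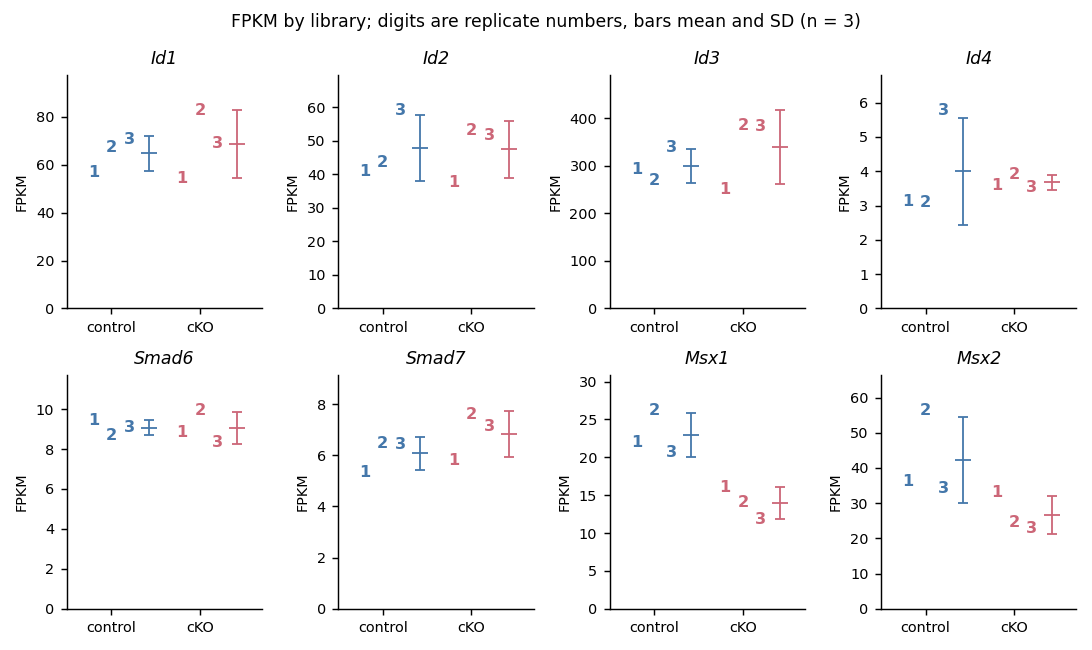
FPKM of *Id1* to *Id4*, *Smad6*, *Smad7*, *Msx1* and *Msx2* by library, each panel on its own axis from 0; digits are replicate numbers, and bars are mean and SD (n = 3). The ID genes and inhibitory SMADs overlap between the groups, whereas the *Msx1* and *Msx2* values of the cKO libraries lie below those of all controls.

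Of the latent TGF-beta binding proteins, which anchor latent TGF-beta to the matrix, *Ltbp3* (chr19:5740904-5758532) was higher. It was at 29.71, 33.20 and 34.04 FPKM in control and 36.64, 46.83 and 37.30 in cKO. The groups did not overlap, and cKO replicate 2 stood above the other libraries. The means were 32.3 ± 2.30 and 40.3 ± 5.70 (SD, n = 3; log2 fold change 0.30, standard error 0.11, interval 0.04 to 0.56, unadjusted p = 0.0288, adjusted p = 0.338, limma), and 3 of the 14 alternatives gave an unadjusted p over 0.05, up to 0.0964 without control replicate 1. *Ltbp1* had a log2 fold change of -0.29 (interval -0.86 to 0.29), *Ltbp2* one of 0.18 (interval -0.08 to 0.45) and *Ltbp4* one of 0.12 (interval -0.22 to 0.45). With 1 library left out, *Ltbp1* ran from -0.49 without control replicate 3 to -0.10 without control replicate 2. *Ltbp4* was at 0.28 without cKO replicate 1 (unadjusted p = 0.00489, adjusted p = 0.0872, limma).

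Seen by library, the highest value fell in cKO replicate 2 for 19 of the 46 members tested (41.3%), and for 23.3% of all rows. This difference between the shares was not tested. The SD was larger in cKO than in control for 26 members (56.5%), close to the 57.9% of all rows.

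**Figure D5:**
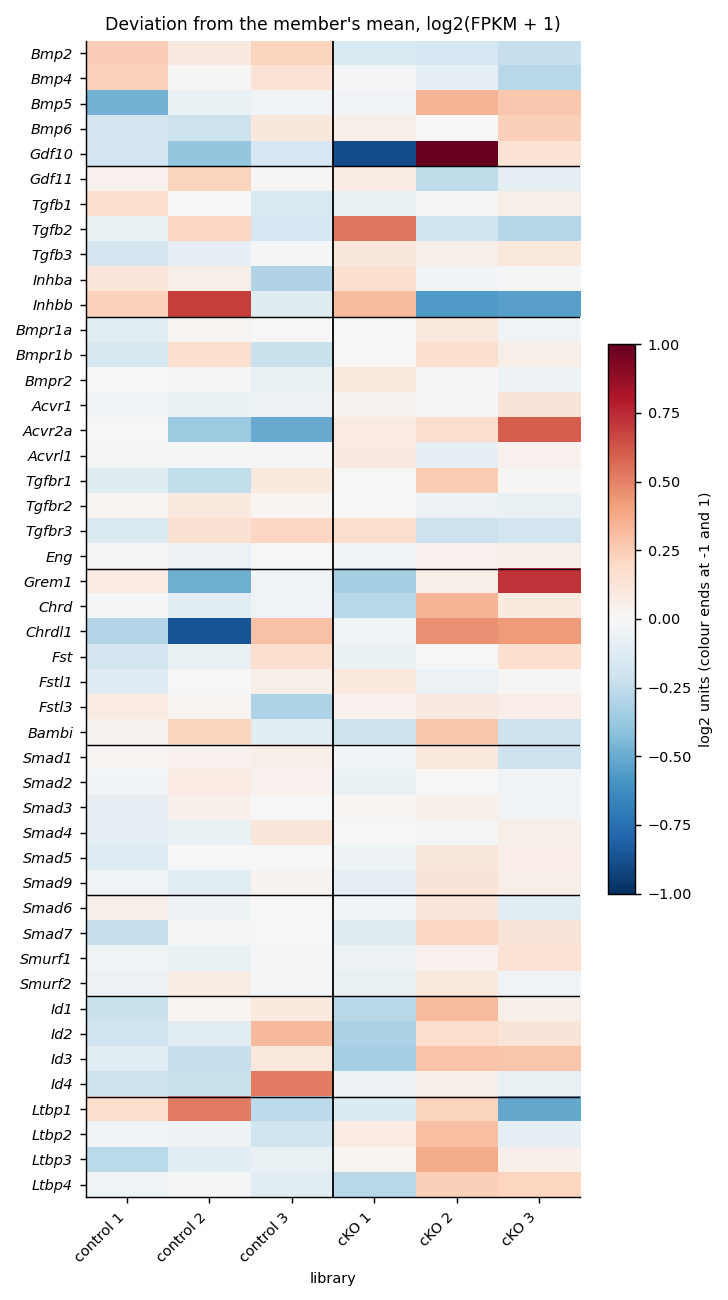
Deviation of each library from the member's mean over the 6 libraries, in log2(FPKM + 1) units, for the 46 members tested; red is above and blue below the mean, the vertical line separates control from cKO, and the colour scale ends at -1 and 1. *Bmp2* is red in all controls and blue in all cKO libraries, while *Gdf10* is deepest blue in cKO replicate 1 and deepest red in cKO replicate 2.

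A further 90 genes of the pathway, among them other ligands, co-receptors, proteases, regulators and responding genes, were read from the same fit. Of these, 83 were in the table and 58 were tested. No adjusted p was under 0.05 (lowest 0.312, limma). At an unadjusted p under 0.05, 6 were higher and 5 lower, beside 5.37% and 7.76% of all rows, and their median difference was 0.00. Several of these genes, *Msx1* and *Sp7* included, were known to differ in these libraries when the list was made, so their direction is not independent evidence.

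The 6 BMP-responsive genes tested included 5 with lower values, 3 of them at an unadjusted p under 0.05, beside 7.76% of all rows. *Msx1*, a homeobox gene of skull and tooth development, was at 21.93, 26.18 and 20.64 FPKM in control and 16.00, 14.01 and 11.75 in cKO (log2 fold change -0.68, standard error 0.13, unadjusted p = 0.00123, adjusted p = 0.312, limma). *Msx2*, its relative in the cranial sutures, was at 36.16, 56.31 and 34.08 in control and 32.93, 24.42 and 22.67 in cKO (log2 fold change -0.62, standard error 0.22, unadjusted p = 0.0236, adjusted p = 0.321, limma). *Sp7*, the osteoblast transcription factor osterix, was at 17.57, 16.86 and 13.20 in control and 12.44, 10.40 and 10.31 in cKO (log2 fold change -0.48, standard error 0.12, unadjusted p = 0.00602, adjusted p = 0.312, limma). The groups did not overlap in any of these 3 genes, beside 11.8% of all rows that were lower without overlap. *Sp7* is also 1 of the osteoblast markers given above. The other genes with lower values, *Runx2* (-0.21) and *Atoh8* (-0.05, interval -0.30 to 0.21), overlapped between the groups. *Dlx5* had a positive difference (0.34, interval -0.49 to 1.17). *Hey1*, below the filter, was at 0.08, 0.22 and 0.35 FPKM in control and 0.27, 0.86 and 0.90 in cKO. Whether the lower values of *Msx1*, *Msx2* and *Sp7*, of *Bmp2* and *Bmp4*, and of the osteoblast markers are related was not tested.

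Among the 17 intracellular regulators, 4 were higher and 1 was lower at an unadjusted p under 0.05, again beside 5.37% and 7.76% of all rows. *Tgif1*, a corepressor of TGF-beta SMADs, was at 26.10, 26.17 and 29.27 FPKM in control and 34.13, 40.95 and 40.03 in cKO (log2 fold change 0.48, standard error 0.09, unadjusted p = 0.00119, adjusted p = 0.312, limma). *Skil*, another SMAD corepressor and a TGF-beta target, was at 7.32, 7.48 and 7.31 in control and 8.37, 8.80 and 8.60 in cKO (log2 fold change 0.20, unadjusted p = 0.00989, adjusted p = 0.312, limma). In both genes every cKO library was above every control. The ubiquitin ligases *Nedd4l* and *Wwp2* had log2 fold changes of 0.22 and 0.20 (adjusted p of 0.312 and 0.325, limma). *Fkbp1a*, the immunophilin FKBP12 that holds type I receptors inactive, was at 217.50, 224.61 and 213.12 in control and 196.69, 181.94 and 176.62 in cKO, again without overlap (log2 fold change -0.24, unadjusted p = 0.00873, adjusted p = 0.312, limma). Of the other lists, the co-receptor *Neo1* had a log2 fold change of 0.28 (adjusted p = 0.342), the convertase *Pcsk6* one of -0.26 (adjusted p = 0.374) and *Bhlhe40*, the 1 of 10 TGF-beta-responsive genes with an unadjusted p under 0.05, one of 0.25 (adjusted p = 0.376, limma).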

How the data were processed

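RNA of 6 libraries, 3 control and 3 cKO, was analysed. Per the labels and the study's methods, the authors aligned paired reads of 150 bp by HISAT2 (GRCm38) and normalized with DESeq; the values deposited are FPKM, 1 per symbol and library, which do not carry that step. The program and annotation behind FPKM, and use of strand, are not given in the sources used here. In 25 rows a date stands in place of the symbol; these rows are not named.

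Differences of log2(FPKM + 1) were tested with limma 3.58.1 in R 4.3.3 (lmFit, eBayes, two-sided, Benjamini-Hochberg adjustment over all rows that reached 1 FPKM in 3 or more libraries), and the script was tested on simulated data. Members and lists were chosen with earlier results of these data known. Named with all values were members with an unadjusted p under 0.05 or without overlap, the highest member of each role, and fixed core genes; of the other pathway genes, those with an unadjusted p under 0.05. Alternatives changed the pseudocount to 0.1, the filter, the variance trend, the scaling, the replicate block, and each library left out; the Y-linked covariate was chosen after seeing the data. Coordinates are from GENCODE M21 and upstream sequences from RefSeq.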

Additional observations from a re-analysis of the deposited data

How the results depend on the processing

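Under 14 alternatives, 488 of 518 differences of 37 named genes kept direction and side of the adjusted threshold, 28 turned direction, and 2 passed the threshold. The 2 were *Msx1* (log2 fold change -0.78, adjusted p = 0.0384) and *Tgif1* (0.56, adjusted p = 0.0337, limma) without cKO replicate 1. Without that library 324 rows had an adjusted p under 0.05, without control replicate 3, 2 rows, and in the other leave-one-out fits 0. With 1 library left out, the members at an unadjusted p under 0.05 numbered 1 to 8 higher and 1 to 4 lower. They were 8 and 4 without cKO replicate 1, beside 9.29% and 11.9% of all rows. Without control replicate 3 they were 8 and 1, beside 6.37% and 7.32%. Without control replicate 1 they were 1 and 1, beside 3.18% and 4.84%. Members without overlap numbered 5 to 15 higher and 3 to 7 lower in those fits, beside 8.54% to 17.7% and 14.1% to 24.3% of all rows. Other pathway genes at an unadjusted p under 0.05 numbered 3 to 7 higher and 4 to 5 lower, beside 3.18% to 9.29% and 3.81% to 11.9% of all rows. From 0 to 2 of them had an adjusted p under 0.05. Y-linked expression as a covariate left 1 member lower at an unadjusted p under 0.05, beside 5.53% of all rows. Median-ratio scaling left 1 member lower without overlap (*Bmp2*), beside 8.7% of all rows, and the groups of *Bmp4* and *Tgfbr2* overlapped there. No filter gave 8 other pathway genes lower at an unadjusted p under 0.05, beside 6.92% of all rows. Median-ratio scaling gave 6.81% of rows higher and 6.01% lower in place of 5.37% and 7.76%. The cause was not tested.

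Those 28 were of 10 genes whose difference with all libraries was at most 0.07 in size. With 1 library left out the log2 fold changes ran from -0.085 to 0.075 (*Tgfb1*), -0.23 to 0.18 (*Tgfb2*), -0.013 to 0.16 (*Fst*), -0.010 to 0.083 (*Fstl1*), -0.014 to 0.094 (*Smad4*), -0.069 to 0.043 (*Smad6*), -0.056 to 0.033 (*Smurf2*), -0.073 to 0.22 (*Id1*), -0.11 to 0.15 (*Id2*) and -0.18 to 0.19 (*Id4*). Median-ratio scaling gave 0.014 for *Tgfb1*, 0.013 for *Smad6*, 0.018 for *Smurf2* and 0.011 for *Id2*, and the Y-linked covariate gave 0.034 for *Tgfb1*, -0.015 for *Smad4*, 0.024 for *Smad6* and 0.027 for *Smurf2*. Of the members described by range, *Gdf10* (-0.13 without cKO replicate 2), *Chrd* (-0.04 without cKO replicate 2), *Inhba* (-0.05 without control replicate 3), *Bambi* (up to 0.02), *Acvrl1* and *Smad3* also turned direction. An unadjusted p under 0.05 also came for *Smad7* (0.24) and *Gdf11* (-0.27) without cKO replicate 1, and for *Tgfbr1* (0.27), *Bmp6* (0.30) and *Id4* (0.19) without control replicate 3. The same held for *Bmpr1b* (0.27) without control replicate 2 and *Bmp6* (0.20) with the replicate block. It held for *Ltbp2* without cKO replicate 3 (0.28) and with the Y-linked covariate (0.26).

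The deviations of same-numbered control and cKO libraries correlated at 0.0314, -0.166 and 0.21 for replicates 1 to 3. Those of differently numbered libraries correlated at -0.272 to 0.275. The labels do not say whether same-numbered libraries share a litter or batch, and with 3 libraries a group these correlations cannot decide it. With the replicate block, 0 rows had an adjusted p under 0.05. At an unadjusted p under 0.05, 4 members were higher and 3 lower, beside 5.9% and 6.74% of all rows. *Ltbp1* had an unadjusted p of 0.00866 there (adjusted p = 0.297, limma). Depth is unknown, 3 libraries a group limit precision, and the 6 members under the filter were tested only without it, where *Bmp3* had the lowest p.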
